A study of Rattus norvegicus with 6 samples.

Results

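The genes described here encode growth factors, guidance cues and the surface receptors that read them. They were chosen by symbol from the genes listed as changed in neonatal rat ventricular cardiomyocytes (NRVCs) after treatment with antiretroviral drugs (ARVs). The rule took every symbol beginning with a stem of one of these families (Fgf, Igf, Tgf, Bmp, Fzd, Pdgf, Notch, Epha, Sema, Ntn, Gdf, Ackr, Adra, Adrb, S1pr and others) together with Flt1, and it left out Gdf15. It found 29 of the 1756 genes in the table, all 29 of which passed the filter on low counts. No gene of the table began with Wnt, Vegf, Egf, Jag, Efn, Plxn, Nrp, Ednr or Agtr or was named Kdr, Hgf or Met, so these were not analysed here. Because the rule goes by name, it also took 4 genes that are neither ligand nor signalling receptor, namely the binding proteins Igfbp4 and Igfbp7, the matrix protein Tgfbi and the receptor-like protein Pdgfrl.

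The genes lie scattered over the genome, with at most 5 on 1 chromosome (Adra1b, Fgf18, Fzd2, Igfbp4 and Ntn1 on chromosome 10). In the coordinates of the table, which follow rat release 97, Adra1d (ENSRNOG00000021256) spans 124129558 to 124145566 on chromosome 3, minus strand, and Fgf18 (ENSRNOG00000048389) spans 18047109 to 18063391 on chromosome 10, minus strand. Igf1 (ENSRNOG00000004517) spans 28412198 to 28486609 on chromosome 7, plus strand, and Flt1 (ENSRNOG00000000940) spans 9034308 to 9205905 on chromosome 12, plus strand. S1pr1 (ENSRNOG00000013683) spans 218654554 to 218658761 on chromosome 2, minus strand, and Ackr3 (ENSRNOG00000019622) spans 97355924 to 97367445 on chromosome 9, plus strand.

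NRVCs are beating heart muscle cells isolated from the ventricles of Sprague Dawley rat pups, here 2 to 3 days old. They were plated at 100000 cells per well after pre-plating, a step that lets faster-attaching cells such as fibroblasts settle out first. The ARVs group received a cocktail of Ritonavir, Atazanavir, Abacavir and Lamivudine at 5 µM for 24 h, and the Control group received the solvent DMSO. Each group had 3 RNA-seq libraries, and whether these came from separate cell preparations was not given in the sources used here, and all p-values here rest on how far the 3 libraries of a group spread, which may be technical spread.

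Growth factors are secreted proteins that bind receptors on the same or neighbouring cells. In the heart, fibroblast growth factors and insulin-like growth factor act largely through receptor tyrosine kinases, whereas the transforming growth factor beta and bone morphogenetic protein family acts through serine/threonine kinase receptors. Guidance cues such as netrins and semaphorins were named for steering axons and also pattern vessels and the developing heart. Adrenergic receptors bind noradrenaline and adrenaline and set the force and rate of the heartbeat.

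The 6 libraries held between 17347680 and 22126119 reads by the depth recovered from the FPKM values, and the table's genes took 25.0% to 26.6% of them. The table contained only genes that had already been called on these same 6 libraries, so every test below describes them and is not independent evidence that they changed. It listed 9 of 16 cardiomyocyte markers, of which 3 rose, Myh7 (log2 fold change 0.51) and Pln (0.38) among them, and 6 fell, Myh6 (-0.88) and Mb (-0.58) among them. Over all genes tested, 39.9% rose and 60.1% fell. The summed normalized count of the 9 cardiomyocyte markers was 463351 to 530926 in the Control libraries and 424424 to 454757 in the ARVs libraries. Its largest terms moved in opposite directions, so the sum is not a measure of cell number. Myh6 had a mean of 178135 in Control and 96959 with ARVs, and Myh7 had 106617 and 151604. Control 2 stood apart from the other Control libraries. The chi-square of its counts per degree of freedom was 29.3 against Control 1 and 32.0 against Control 3, where the other pairs within a group gave 4.84 to 6.44. The table listed 10 of 21 hypoxia inducible genes, 1 higher and 9 lower with ARVs, beside 60.1% lower over all genes tested. Their summed normalized count was 60488 in Control 2, 91914 in Control 1 and 94788 in Control 3. In the ARVs libraries it was 52073 to 56783. Ldha was the largest term, with a mean of 34798 in Control and 24279 with ARVs.

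Of the 29 genes, 16 rose and 13 fell with ARVs in edgeR's quasi-likelihood test at an adjusted p under 0.05. In the whole table the same test called 100% of the 1751 genes tested, 39.9% as higher and 60.1% as lower, so being called says nothing particular about these genes. Their median log2 fold change was 0.23, beside -0.25 for all genes tested, and the median size of the change was 0.52 beside 0.39. Their median normalized count in Control was lower, at 399 beside 951. The part of this lower abundance in the size of the changes was not tested. In 28 of the 29 genes the 3 ARVs values lay wholly above or wholly below the 3 Control values, which held for 95.9% of the table (39.2% higher, 56.7% lower). Changes were mostly moderate, and 3 genes (Adra1d, Sema7a and Fgf18) differed by more than 2-fold. This was 10.3% of the 29 genes, beside 9.37% of all genes tested. In bulk RNA, fewer cells of a type and less RNA per cell cannot be told apart. Without Control 2, the counts of higher and lower genes were again 16 and 13, beside 701 and 1050 over all genes tested.

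The split between higher and lower depended on how the libraries were scaled against each other. The values below use the size factors that the authors had applied to their whole data set. Scaling by TMM over the listed genes alone shifted the median log2 fold change by 0.10, and median-ratio factors over them shifted it by 0.20. With TMM, 16 of the genes were higher, 10 lower and 3 uncalled, where the whole table had 90.3% called, 50.4% as lower. With median-ratio factors 16 were higher, 8 lower and 5 uncalled, where the whole table had 70.5% called, 30.6% as lower. The share of called genes that were higher thus went from 55.2% to 61.5% and 66.7% for these genes, and from 39.9% to 44.2% and 56.6% for the table. The genes uncalled under either scaling were Bmpr1a, Fgfr1, Igfbp7, Flt1 and Bmp4, all of them genes that fell.

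**Figure D1:**
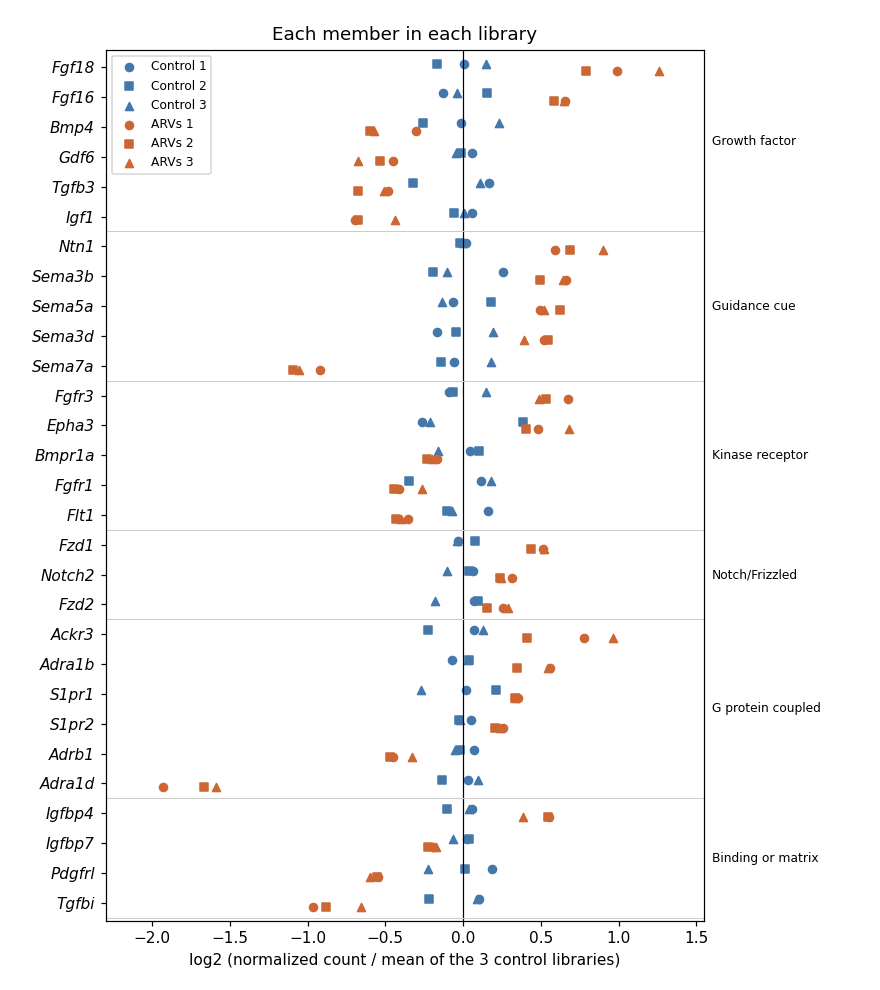
Normalized count of each gene in each library, as log2 relative to the mean of the 3 Control libraries (x axis), with genes on the y axis grouped by role. Each point is 1 library, blue for Control and orange for ARVs, with a circle, square or triangle for replicates 1, 2 and 3. Fgf18 lies farthest to the right and Adra1d farthest to the left, and Fgfr1 is the gene whose groups overlap.

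The promoters of 5 of the genes are shown. Adra1d, Fgf18 and Sema7a are the genes that moved by more than 2-fold, and Ackr3 and Fgfr3 hold the most matches to the letters searched for. The sequences are the 250 bases before the transcript start from RefSeq, build GRCr8, which gave a promoter for 22 of the 29 genes. They were searched on both strands for ACGTG (the hypoxia response core), GCGTG (the aryl hydrocarbon response core), TGACNNNGC (the antioxidant response element) and TGATGNAA (the CEBP-ATF response element), and capitals mark each match, where GCGTG on the other strand reads CACGC. Fgf18 rose and lies at chr10:18240883-18241132 on the minus strand. Ackr3 rose and lies at chr9:98247104-98247353 on the plus strand. Fgfr3 rose and lies at chr14:81227210-81227459 on the minus strand. Sema7a fell and lies at chr8:67244068-67244317 on the plus strand, and Adra1d, which fell most, lies at chr3:139262332-139262581 on the minus strand.
Fgf18: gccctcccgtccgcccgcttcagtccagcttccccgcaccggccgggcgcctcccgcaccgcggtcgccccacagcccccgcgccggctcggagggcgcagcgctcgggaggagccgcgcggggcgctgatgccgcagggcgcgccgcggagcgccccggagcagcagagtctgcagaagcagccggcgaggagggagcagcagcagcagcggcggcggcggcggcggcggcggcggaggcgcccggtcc
Ackr3: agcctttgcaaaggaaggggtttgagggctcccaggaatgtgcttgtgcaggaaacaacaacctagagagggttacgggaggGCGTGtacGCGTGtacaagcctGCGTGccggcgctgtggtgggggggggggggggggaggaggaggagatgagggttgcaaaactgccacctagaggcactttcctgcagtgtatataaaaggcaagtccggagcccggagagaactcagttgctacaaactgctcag
Fgfr3: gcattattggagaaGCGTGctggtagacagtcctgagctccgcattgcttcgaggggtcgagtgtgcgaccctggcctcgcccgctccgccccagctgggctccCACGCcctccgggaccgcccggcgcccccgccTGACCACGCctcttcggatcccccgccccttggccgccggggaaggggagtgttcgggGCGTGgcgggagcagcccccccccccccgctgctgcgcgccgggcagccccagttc
Sema7a: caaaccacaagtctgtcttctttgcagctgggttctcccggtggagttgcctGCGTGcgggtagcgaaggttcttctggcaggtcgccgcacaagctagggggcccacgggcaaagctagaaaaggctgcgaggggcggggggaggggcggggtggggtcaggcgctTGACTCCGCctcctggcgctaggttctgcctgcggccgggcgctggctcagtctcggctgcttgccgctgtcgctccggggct
Adra1d: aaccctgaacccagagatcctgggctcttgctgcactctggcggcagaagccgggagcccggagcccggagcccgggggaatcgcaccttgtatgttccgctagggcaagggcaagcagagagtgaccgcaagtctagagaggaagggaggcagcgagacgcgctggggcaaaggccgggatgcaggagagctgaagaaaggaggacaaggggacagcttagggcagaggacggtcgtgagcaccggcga

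Ackr3 held GCGTG 3 times and Fgfr3 held it 4 times, 1 of them within its single match to TGACNNNGC. Sema7a held both motifs once, and Adra1d and Fgf18 held none of the 4. Over the 22 promoters GCGTG occurred in 9 (40.9%), in genes that rose (Ackr3, Fgfr3, Notch2, S1pr2) and genes that fell (Adrb1, Flt1, Igfbp7, Sema7a, Tgfbi), and it occurred in 25.9% of all 33469 rat promoters. ACGTG occurred in 2 of 22 (9.09%) beside 16.6% of all promoters, TGACNNNGC in 2 of 22 beside 10.1%, and TGATGNAA in 0 of 22 beside 3.40%. The 22 promoters were richer in G and C, with a median of 66.0% against 51.2% for all promoters. The part of base composition in these shares was not tested.

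The genes are taken below by role, in groups of 3 to 6. Counts in such small groups are a description, beside 39.9% higher and 60.1% lower over all genes tested. Among the 6 growth factor ligands, both fibroblast growth factors rose and the other 4, Igf1, Tgfb3, Gdf6 and Bmp4, fell. Fgf18, a ligand with known roles in bone and lung development that signals well through the receptor encoded by Fgfr3, had normalized counts of 125, 111 and 138 in the Control libraries and 248, 216 and 299 with ARVs. Every ARVs library was above every Control library. The difference was 1.02 ± 0.16 (log2, SE; edgeR adjusted p = 0.00087), a 2.03-fold rise and the largest among the genes that rose. Fgf16, a member of the Fgf9 subfamily that the heart itself produces, went from 252, 306 and 267 to 433, 412 and 431, again without overlap. It rose by 0.63 ± 0.10 on the log2 scale (edgeR adjusted p = 0.00092).

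Igf1, which promotes growth and survival of cardiomyocytes through its receptor tyrosine kinase, had normalized counts of 602, 556 and 581 in Control and 357, 363 and 428 with ARVs. All ARVs libraries were below all Control libraries, and the log2 fold change was -0.60 ± 0.09 (edgeR adjusted p = 0.00073). Tgfb3, one of the transforming growth factor beta isoforms, was the most abundant ligand per length, with 80.6 ± 13.2 FPKM in Control and 56.0 ± 3.50 with ARVs (mean ± SD, n = 3). Its normalized counts were 4669, 3331 and 4497 against 2983, 2602 and 2926. Control 2 was its lowest Control library yet still lay above the ARVs libraries, and the log2 fold change was -0.55 ± 0.12 (edgeR adjusted p = 0.0032).

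The bone morphogenetic protein ligands Gdf6 and Bmp4 had lower counts too. Gdf6, known for its part in joint formation, had counts of 713, 677 and 662 against 501, 471 and 427, with no overlap. The log2 fold change was -0.55 ± 0.08 (edgeR adjusted p = 0.00055). Bmp4, which acts early in heart and mesoderm development, had 257, 217 and 305 against 211, 171 and 174, so that Control 2 and ARVs 1 nearly met. Its log2 fold change of -0.48 ± 0.15 (edgeR adjusted p = 0.014) lost its call without Control 3 (adjusted p = 0.054) or without ARVs 2 (adjusted p = 0.052), and with median-ratio factors (adjusted p = 0.11).

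Of the 5 guidance cues, 4 rose and Sema7a fell, beside 39.9% higher over all genes tested. Ntn1 encodes netrin, a secreted cue that attracts or repels growing axons depending on the receptor. Its normalized counts were 178, 174 and 176 in Control, a coefficient of variation of 1.18%, and 265, 283 and 328 with ARVs. The rise was 0.73 ± 0.12 on the log2 scale (edgeR adjusted p = 0.00099). Sema5a, a membrane-spanning semaphorin with thrombospondin repeats, was the most abundant cue at 12.8 ± 1.67 FPKM in Control and 19.1 ± 1.10 with ARVs. It went from 1761, 2089 and 1676 to 2600.2, 2836 and 2647 normalized counts, without overlap (log2 fold change 0.55 ± 0.08, edgeR adjusted p = 0.00077).

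The secreted class 3 semaphorins, which act through neuropilin and plexin receptors, were less abundant. Sema3b had normalized counts of 196, 144 and 153 in Control and 260.1, 231 and 256 with ARVs (log2 fold change 0.60 ± 0.14, edgeR adjusted p = 0.0046). Sema3d had 244, 265 and 313 against 393, 401 and 359 (0.49 ± 0.11, edgeR adjusted p = 0.0039). In both genes the ARVs libraries were above the Control libraries. Sema7a, which is anchored in the membrane by a lipid and binds plexin and integrin receptors, moved the other way, from 380.0, 359 and 447 to 209, 185 and 190.1. The groups stood far apart, and its log2 fold change of -1.02 ± 0.12 (edgeR adjusted p = 0.0002) was second in size only to that of Adra1d among the genes that fell.

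The 5 kinase receptors were divided, with Fgfr3 and Epha3 higher and Fgfr1, Flt1 and Bmpr1a lower. Fgfr3, a fibroblast growth factor receptor best known for restraining bone growth, had normalized counts of 306, 311 and 360.0 in Control and 519, 470.4 and 457 with ARVs. The groups did not overlap, and the rise was 0.57 ± 0.10 on the log2 scale (edgeR adjusted p = 0.0013). Fgfr1, the more abundant of these receptors at 53.2 ± 9.50 FPKM in Control against 5.48 ± 0.51 for Fgfr3, had 3181, 2306 and 3324 against 2205, 2156 and 2446. Control 2 lay below ARVs 3, so that its groups overlapped. Its log2 fold change of -0.37 ± 0.13 (edgeR adjusted p = 0.018) lost its call when Control 1, Control 3, ARVs 1 or ARVs 2 was left out (adjusted p = 0.061 to 0.069), with TMM (0.058) and with median-ratio factors (0.18), and it was -0.52 without Control 2.

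Flt1, the type 1 receptor for vascular endothelial growth factor, is best known from endothelial cells. It had the lowest level per length of the 29 genes, at 2.53 ± 0.23 FPKM in Control and 1.97 ± 0.04 with ARVs. Its normalized counts were 389, 323 and 331 against 273, 258 and 263, without overlap, and the log2 fold change was -0.39 ± 0.10 (edgeR adjusted p = 0.0062). With median-ratio factors the log2 fold change was -0.19 and was not called (adjusted p = 0.12). The table listed 5 of 17 endothelial markers. Of these, 4 were lower (Cd34, Esm1 and Cd93 among them) and Tek was higher, beside 60.1% lower over all genes tested. Their summed normalized count was 1472 to 1513 in Control and 1134 to 1224 with ARVs, and none was at 0. The defining endothelial markers Pecam1, Cdh5, Kdr and Vwf were not analysed here, and the part of endothelial cells in the change of Flt1 was not tested.

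Epha3, an ephrin receptor with roles in cell repulsion and in the developing heart's valves and septa, had normalized counts of 218, 343 and 226 in Control and 367, 347 and 421 with ARVs. Control 2 nearly reached ARVs 2, and the coefficient of variation in Control, 26.6%, was the highest of the 29 genes. The log2 fold change of 0.52 ± 0.18 (edgeR adjusted p = 0.018) lost its call without Control 1, Control 3 or ARVs 3 (adjusted p = 0.054 to 0.071) and was 0.76 without Control 2. Bmpr1a, a type 1 receptor for bone morphogenetic proteins, had 4184, 4349.7 and 3631 against 3605, 3449.9 and 3530.3. Control 3 was separated from ARVs 1 by little. Its log2 fold change of -0.20 ± 0.07 (edgeR adjusted p = 0.018) lost its call without Control 1, ARVs 2 or ARVs 3 (adjusted p = 0.052 to 0.064), with TMM (-0.11, adjusted p = 0.16) and with median-ratio factors (adjusted p = 0.97).

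The Notch and Frizzled receptors, only 3 genes, all rose, beside 39.9% higher over all genes tested. Fzd1, a receptor for WNT ligands, had normalized counts of 7539, 8137 and 7504 in Control and 11056, 10456 and 11096 with ARVs, a wide gap beside the spread within either group. It rose by 0.49 ± 0.05 (log2, SE; edgeR adjusted p = 0.00012) and was the second most abundant of the 29 genes per length, going from 89.2 ± 5.21 to 128 ± 2.82 FPKM. Fzd2, a related receptor, had 2915, 2968 and 2444 against 3313, 3090.1 and 3384. The groups did not overlap, but its log2 fold change of 0.23 ± 0.08 (edgeR adjusted p = 0.017) was 0.15 without Control 3 and lost its call without ARVs 1 (adjusted p = 0.057) or ARVs 3 (adjusted p = 0.065). Notch2, whose cleaved intracellular part acts as a transcription cofactor, went from 1959, 1927 and 1743 to 2337, 2216 and 2219, without overlap (0.27 ± 0.06, edgeR adjusted p = 0.0032).

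The 6 G protein coupled and related receptors included the gene with the largest fall. Adra1d, one of the alpha-1 adrenergic receptors that couple to Gq and phospholipase C, had normalized counts of 405, 361 and 425 in Control and 104, 125 and 132 with ARVs. The highest ARVs library was far below the lowest Control library. The log2 fold change was -1.72 ± 0.13 (edgeR adjusted p = 3.4e-05), leaving 0.30 of the Control level, or 2.11 ± 0.25 FPKM in place of 6.83 ± 0.51. Adra1b, another alpha-1 receptor and one long known in rat cardiomyocytes, moved the other way, from 365, 393 and 390.2 to 563, 486 and 558, also without overlap. It rose by 0.48 ± 0.09 on the log2 scale (edgeR adjusted p = 0.0015).

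Adrb1, the main beta-adrenergic receptor of cardiomyocytes, which raises cyclic AMP, had normalized counts of 697, 655 and 640.2 in Control and 485, 479 and 529 with ARVs. The groups stood apart (log2 fold change -0.42 ± 0.07, edgeR adjusted p = 0.0013). Ackr3 encodes an atypical chemokine receptor that binds CXCL12 and signals through arrestin rather than G proteins. Its counts of 132, 107 and 137 rose to 215, 167 and 244, and its coefficient of variation with ARVs, 18.7%, was the highest of the 29 genes in that group. The groups did not overlap (0.73 ± 0.18, edgeR adjusted p = 0.0046).

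The sphingosine-1-phosphate receptors S1pr1 and S1pr2 respond to a lipid carried in blood, S1pr1 through Gi and S1pr2 largely through other G proteins. S1pr1 had normalized counts of 3167, 3634 and 2593 in Control and 4006, 3945 and 3953 with ARVs. The Control libraries were widely spread (coefficient of variation 16.6%) and the ARVs libraries nearly equal (0.84%). Its log2 fold change of 0.34 ± 0.10 (edgeR adjusted p = 0.012) was 0.46 without Control 2 and 0.22 without Control 3. S1pr2 had 1406, 1333 and 1339.7 against 1628, 1565 and 1606, with no overlap (0.23 ± 0.05, edgeR adjusted p = 0.003).

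The last 4 genes carry a growth factor in their name but bind, resemble or follow one. Igfbp4, which binds insulin-like growth factors and holds them from their receptor, rose from 416, 371 and 409.6 to 586, 584 and 522 (log2 fold change 0.50 ± 0.08, edgeR adjusted p = 0.0012). Igfbp7, a secreted protein with low affinity for these factors, was the most abundant of the 29 genes at 443 ± 19.6 FPKM in Control and 394 ± 2.89 with ARVs. Its groups did not overlap, at 9781, 9876 and 9167 normalized counts against 8403, 8219.6 and 8528, but the change was small (-0.20 ± 0.05, edgeR adjusted p = 0.0042). It was -0.10 and uncalled with TMM (adjusted p = 0.059) and 0.0012 with median-ratio factors (adjusted p = 0.99), so its direction rests on the scaling.

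Tgfbi, a matrix protein induced by transforming growth factor beta in many cells, had normalized counts of 679.6, 542 and 674 in Control and 324, 344 and 402 with ARVs. All ARVs libraries were below all Control libraries (log2 fold change -0.83 ± 0.12, edgeR adjusted p = 0.00056). Pdgfrl, which resembles the outer part of a platelet-derived growth factor receptor and has no kinase, had 273, 242 and 205 against 164, 163 and 159. Its groups did not overlap, and the ARVs libraries were close together (-0.57 ± 0.13, edgeR adjusted p = 0.0042).

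**Figure D2:**
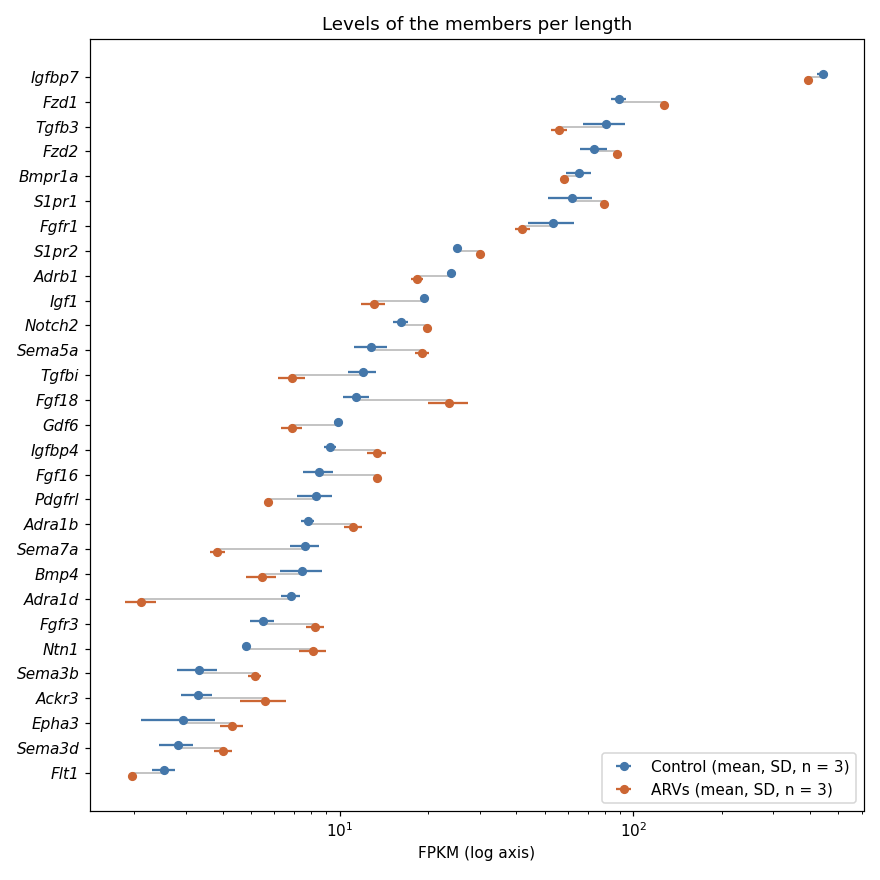
Level of each gene in FPKM (log axis), as the mean of 3 Control libraries (blue) and 3 ARVs libraries (orange) with bars of 1 SD, ordered by the Control mean; a grey line joins the means. Igfbp7 stands alone at 443 FPKM in Control, Fzd1, Tgfb3, Fzd2, Bmpr1a, S1pr1 and Fgfr1 follow between 89.2 and 53.2 FPKM, and Flt1 is lowest at 2.53 FPKM.

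Per length, the levels in Control spanned from 443 FPKM (Igfbp7) to 2.53 FPKM (Flt1), with a median of 9.90 FPKM beside 19.8 FPKM for all genes of the table. Neighbours in this order often lay within each other's spread. Fzd1 (89.2 ± 5.21 FPKM) and Tgfb3 (80.6 ± 13.2) overlapped among the Control libraries, as did Fzd2 (73.7 ± 7.85), Bmpr1a (65.4 ± 6.36) and S1pr1 (61.9 ± 10.8). With ARVs the order changed in places, as S1pr1 at 79.9 ± 0.91 FPKM was then above Tgfb3 at 56.0 ± 3.50 FPKM in every library. Control libraries were more spread than ARVs libraries, with a median coefficient of variation over the 29 genes of 10.4% against 6.38%, beside 6.95% and 4.89% for the table. Without Control 2 the Control value was 4.78%. It rests on Control 1 and Control 3 alone, so it cannot be set directly against the values from 3 libraries. Control 2 was the Control library nearest to the ARVs mean in 15 of the 29 genes (51.7%), beside 54.8% of the table.

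Relations between related genes were also taken within each library, since the ratio of a pair does not depend on scaling. The exact two-sided permutation test over 3 and 3 libraries cannot go below p = 0.1, and every pair without overlap given here reached that value. Adra1d and Adra1b were close to equal in Control, with an FPKM ratio of Adra1d to Adra1b of 0.94, 0.78 and 0.92. With ARVs the ratio was 0.16, 0.22 and 0.20, a fall to 0.22 of the Control ratio (difference -2.21 on the log2 scale). Thus the Adra1d and Adra1b transcripts changed from a nearly even pair to one mostly of Adra1b.

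**Figure D3:**
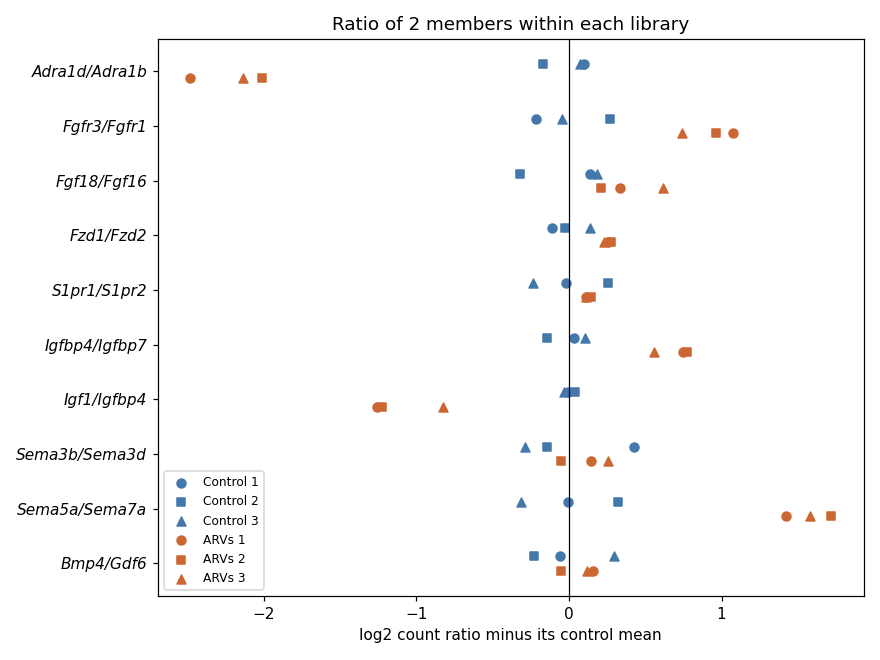
Log2 ratio of the counts of 2 related genes within each library, less the mean of that ratio in Control (x axis), for 10 pairs. Each point is 1 library, blue for Control and orange for ARVs, with a circle, square or triangle for replicates 1, 2 and 3. Adra1d/Adra1b fell by 2.21 and Igf1/Igfbp4 fell by 1.10, Sema5a/Sema7a and Fgfr3/Fgfr1 rose by 1.57 and 0.92, and the groups overlap for S1pr1/S1pr2, Sema3b/Sema3d and Bmp4/Gdf6.

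Sema5a exceeded Sema7a by a log2 count ratio of 2.21, 2.54 and 1.91 in Control and of 3.64, 3.94 and 3.80 with ARVs, a 2.98-fold rise of the ratio. The log2 count ratio of Fgfr3 to Fgfr1 was -3.38, -2.89 and -3.21 in Control and -2.09, -2.20 and -2.42 with ARVs, 1.90-fold higher, so the pair stayed apart between groups in Control 2 as well, where Fgfr1 alone overlapped. Igf1 against its binding protein Igfbp4 went from 0.53, 0.58 and 0.50 to -0.72, -0.69 and -0.28, or 0.47 of the Control ratio. Per length, the FPKM ratio of Igf1 to Igfbp4 was 2.08, 2.15 and 2.04 in Control and 0.87, 0.89 and 1.18 with ARVs, so that Igf1 was about level with Igfbp4 in the ARVs libraries.

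Smaller shifts without overlap were seen for Igfbp4 to Igfbp7 (1.62-fold), Fgf18 to Fgf16 (1.31-fold, a log2 difference of 0.39 that was 0.23 without Control 2) and Fzd1 to Fzd2 (1.19-fold). The ratios of S1pr1 to S1pr2 (log2 difference 0.12, exact p = 0.5), Sema3b to Sema3d (0.12, exact p = 0.7) and Bmp4 to Gdf6 (0.08, exact p = 0.6) overlapped between the groups. Single libraries moved these differences, which were 0.25 without Control 2 and 0.0017 without Control 3 for S1pr1 to S1pr2, where without Control 2 the groups no longer overlapped. They were 0.33 without Control 1, 0.05 without Control 2 or ARVs 3, -0.03 without Control 3 and 0.20 without ARVs 2 for Sema3b to Sema3d. They were -0.04 without Control 2, 0.22 without Control 3, 0.14 without ARVs 2, and 0.05 and 0.03 without Control 1 and ARVs 1 for Bmp4 to Gdf6. With all libraries, for these pairs no difference in response was detectable with 3 libraries per group.

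**Figure D4:**
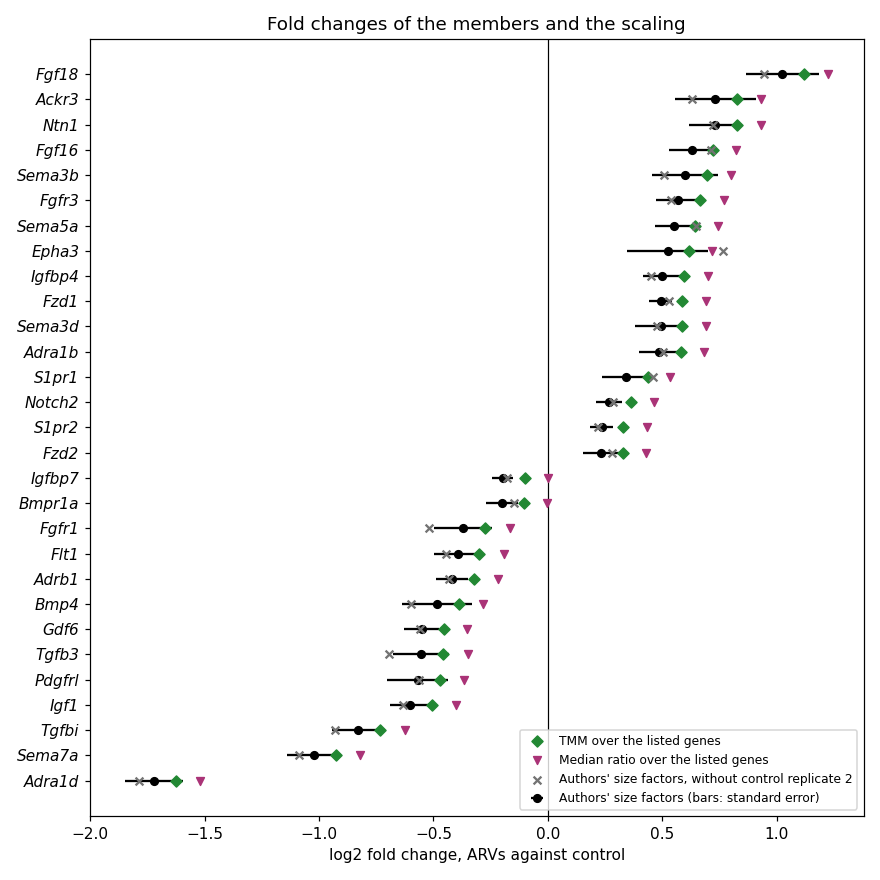
Log2 fold change (ARVs over Control) of each gene under the authors' size factors with bars of 1 SE, and under TMM and median-ratio factors over the listed genes, and (crosses) under the authors' factors without Control 2. Genes move right by about 0.10 with TMM and 0.20 with median-ratio factors, which brings Igfbp7 and Bmpr1a to about 0 and leaves Adra1d, Sema7a and Tgfbi well below it.

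Other genes of the same pathways in the table were counted from lists of textbook members that hold none of the 29 genes. Their counts stand beside 39.9% higher, 60.1% lower and a median log2 fold change of -0.25 over all genes tested, and with so few genes each is a description. Of 31 genes on the fibroblast growth factor list 6 were in the table, 4 higher and 2 lower, with a median log2 fold change of 0.44. The higher ones included Dusp4 (0.56 ± 0.05, edgeR adjusted p = 4.9e-05), which switches off MAP kinases, Spry1 (0.57 ± 0.09), an inhibitor induced by the pathway, and Egr1 (0.70 ± 0.14), an immediate early transcription factor. Etv4, a transcription factor of the same pathway, was among the lower ones (-0.38 ± 0.08). Of 19 genes on the insulin-like growth factor list 2 were in the table, both lower, namely the secreted proteases Htra1 (-0.34 ± 0.05) and Htra3 (-0.51 ± 0.13).

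The transforming growth factor beta, activin and bone morphogenetic protein list had 15 of 61 genes in the table, 4 higher and 11 lower, with a median of -0.38, which is a majority of lower genes as in the whole table (60.1% lower, median -0.25). Rgma, a co-receptor for bone morphogenetic proteins, fell by 1.13 on the log2 scale (edgeR adjusted p = 1.8e-05). Inha, the inhibin alpha subunit (-1.12 ± 0.08), Grem1, a secreted antagonist of bone morphogenetic proteins (-1.75 ± 0.15), and Ltbp1, which tethers the latent ligand to matrix (-0.40 ± 0.06), fell as well. So both ligands and an antagonist of this family were among the lower genes.

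The WNT list had 7 of 53 genes in the table, 4 higher and 3 lower (median 0.25), with the receptor Lgr4 (0.26 ± 0.05), the secreted modulator Sfrp1 (0.25 ± 0.05) and the cadherin Celsr1 (0.42 ± 0.07) higher and the inhibitor Nkd2 (-0.99 ± 0.14) lower. The Notch list had 5 of 31 genes, 4 higher and 1 lower (median 0.26). Psen2 (0.41 ± 0.06) and Psenen (0.26 ± 0.06), both parts of the gamma-secretase that cleaves Notch, were higher, as was Numbl (0.26 ± 0.06), while Neurl1b, a ubiquitin ligase for Notch ligands, was lower (-1.19 ± 0.13). The axon guidance list had 4 of 48 genes, with Robo1 (0.35 ± 0.07), a Slit receptor, Boc (0.36 ± 0.08) and Neo1 (0.21 ± 0.06), a receptor for netrin and for Rgma, higher and Rgma lower.

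The vascular endothelial growth factor and angiopoietin list had 8 of 26 genes, 2 higher and 6 lower (median -0.42). The lower ones included Angptl2 (-0.57 ± 0.06), Esm1 (-1.07 ± 0.17) and the hypoxia inducible factor Epas1 (-0.37 ± 0.06), and the angiopoietin receptor Tek was higher (0.57 ± 0.10). Pgf, named here after its value was seen because it encodes a ligand of Flt1, fell from 144, 115 and 137 normalized counts to 104, 71.6 and 77.6 (-0.65 ± 0.19, edgeR adjusted p = 0.0098). The adrenergic and other G protein coupled signalling list had 18 of 54 genes, 6 higher and 12 lower (median -0.34), again near the 60.1% lower and the median of -0.25 of the whole table. Among them Prkar2b, a regulatory subunit of protein kinase A (-0.47 ± 0.06), and Rgs5 (-1.27 ± 0.19) were lower, and Pln, the brake on the calcium pump that beta-adrenergic signalling releases (0.38 ± 0.05), and the prostaglandin receptor Ptgfr (0.46 ± 0.06) were higher.

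Markers of other cells that such cultures can hold also moved. Their counts stand beside 39.9% higher and 60.1% lower over all genes tested. All 8 listed smooth muscle and pericyte markers (of 12, led by Tagln, Cnn1, Myh11 and Lmod1) fell, their summed normalized count going from 110363 to 133309 in Control to 79028 to 90716 with ARVs. Most of that sum was Acta2 alone, with a mean of 81469 in Control and 57618 with ARVs. The table listed 8 of 14 fibroblast markers, of which 3 rose and 5 fell, with sums of 162562 to 167454 and 158570 to 160648. The largest terms of these sums moved in opposite directions. Col3a1 had a mean of 92538 in Control and 75326 with ARVs, and Fn1 had 63755 and 76695. It listed 5 of 12 macrophage markers, with Cd74 lower and the other 4 higher, and sums of 1049 to 1140 and 1414 to 1498. None of these markers was at 0 in a library. Their part in the changes of Adra1d, Tgfb3, Tgfbi and the other genes was not tested.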

How the data were processed

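The authors prepared TruSeq RNA libraries from the NRVCs, sequenced them on an Illumina instrument, aligned them to the rat genome of release 97 using HISAT2, and used StringTie 1.3.3b for transcript assembly. The program that counted the reads is not given in the sources used here. The deposited table holds, for 1756 genes that the authors had called, raw read counts per gene and library. It also holds the authors' normalized counts (a signal: raw counts divided by a size factor per library) and the authors' FPKM. Its 3 columns of the authors' own comparison, in which the authors gave each gene's log2 change with its raw and corrected p-value, were not used.

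Raw counts were tested with edgeR 4.0.16 (R 4.3.3; filterByExpr, glmQLFit, glmQLFTest, two-sided), scaled by the authors' size factors. The filter removed 5 genes, and p-values were adjusted (Benjamini-Hochberg) over 1751 genes, across a table chosen for change, which makes them too small. The standard error is the size of the log2 fold change over the square root of F. Alternatives were TMM and median-ratio factors over the listed genes, DESeq2 1.42.0, other filters, a threshold of 0.01, leaving out each library, and the replicate number as a block. The script was tested on simulated data. The members and lists were chosen with earlier results of these data known. All members are named, and from each list at most 4 called genes with the smallest adjusted p. Acta2, Pgf, Kl, Rgs2, Rgs4, Rgs7 and Rgs12 fall outside this and were named after their values were seen. Total depth was recovered from counts, gene length and FPKM. Promoters came from RefSeq (GRCr8), whose coordinates were not mixed with those of the table.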

Additional observations from a re-analysis of the deposited data

How the results depend on the processing

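The direction and call of 22 of the 29 genes held under TMM, median-ratio factors, DESeq2, both filters, the block and each left-out library. Bmp4, Bmpr1a, Epha3, Fgfr1, Flt1, Fzd2 and Igfbp7 lost the call under at least 1 of these. The same count was not taken over all genes tested, so 22 of 29 cannot be read as particular to these genes. Of all genes tested, TMM alone left 90.3% called and median-ratio factors alone left 70.5% called. At a threshold of 0.01, 13 of the genes were higher and 10 lower, beside 626 and 932 of all 1751 genes tested.

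Under median-ratio scaling, 8 of the genes and 536 of all genes tested were called lower, beside 13 and 1052, and Igfbp7 was at 0.0012. Under the same factors the lists had 1 (FGF), 1 (IGF), 7 (TGF-beta, activin and BMP) and 3 (VEGF and angiopoietin) lower genes. With at least 10 counts in every library the FGF list had 1 lower gene, because Kl was not tested. Leaving out each library in turn gave 14 to 16 higher and 10 to 13 lower genes, and among all genes tested 672 to 701 higher and 985 to 1050 lower. The median coefficient of variation in Control was 4.78% without Control 2, from Control 1 and Control 3 alone.

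The deviations of same-numbered libraries correlated at r = -0.01, 0.24 and 0.07. Differently numbered libraries were not compared in this way, so whether the replicate numbers pair the libraries is not known. With the replicate block, 16 of the genes were higher and 13 lower, and 699 and 1052 over the table, which changed no call.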

Other observations

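Regulators of G protein signalling, which shorten the active time of G proteins such as Gq and Gi, were chosen for this description after their values were seen. The table held 5 of them on the signalling list, 1 higher and 4 lower, beside 39.9% higher and 60.1% lower over all genes tested. Rgs2, which acts mainly on Gq, had normalized counts of 578, 486 and 570.2 in Control and 653, 711 and 760.3 with ARVs (log2 fold change 0.38 ± 0.09, edgeR adjusted p = 0.0044). The ARVs libraries were all above the Control libraries. Rgs4 had 505, 159 and 462 against 91.9, 83.4 and 168, so that Control 2 lay within the range of the ARVs libraries (-1.73 ± 0.43, edgeR adjusted p = 0.0052). Rgs5 (-1.27 ± 0.19), Rgs7 (-1.61 ± 0.30) and Rgs12 (-0.31 ± 0.08) were lower without overlap. Rgs7 had low normalized counts, at 65.9, 46.3 and 46.3 in Control and 19.6, 11.8 and 21.4 with ARVs. The counts of Rgs5 were low too, at 74.0, 82.0 and 88.4 against 32.0, 30.8 and 38.2. Rgs5 is also on the list of pericyte markers, and the part of those cells in its change was not tested.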
